A study of Mus musculus with 8 samples.

Results

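The 38 genes described here encode the core machinery of macroautophagy: the kinase complex that starts it, the lipid transfer proteins and phosphoinositide kinase that build the membrane, the conjugation system, the cargo receptors and the fusion factors. They were taken by gene name from the deposited table of 54532 genes, and all 38 were found in it, each in 1 row. The libraries came from cells labelled as neutrophils that had infiltrated mouse mammary tumours. The comparison is of the ICAM1high with the ICAM1low fraction, 4 biological replicates each. The tumours grew in Balb/c mice from fat pad grafts of the mouse mammary tumour line 2208L, were collected at a diameter of 1 cm and were dissociated before flow sorting on ICAM1 (CD54), an adhesion molecule that binds beta2 integrins. Neither fraction was treated. The labels give no genotype, age or sex, and nothing says whether replicates came from separate mice. P-values therefore measure the spread between these samples.

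In autophagy a double membrane closes around cytoplasm, damaged organelles or microbes and fuses with lysosomes, where the contents are degraded. A ubiquitin-like conjugation system acts on this membrane, and receptors such as p62 bring ubiquitinated cargo to it. In neutrophils the pathway is known for roles in differentiation, degranulation and extracellular trap release.

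Transcription factors of the TFEB family control many autophagy and lysosome genes and bind DNA at CACGTG cores, so the start regions of the members were searched for these letters. The RefSeq table on build GRCm38.p6, which spans 250 bases before to 50 bases after each start, held windows of 300 bases for 31 of the 38 genes, in 34 sequences. Becn1, Rb1cc1, Pik3c3, Atg12, Atg16l1 and Epg5 were among the 7 with no window in it. CACGTG, which reads the same on both strands, stood in 4 of the 34 windows (11.8%), those of Atg3, Atg5, Atg7 and Atg14, against 7.15% of all 32851 windows. The longer TCACGTG, searched on both strands and overlapping the first motif by construction, stood in 3 member windows (8.82%) and in 3.77% of all. GTAAACA, the core bound by FOXO factors, stood in 0 member windows and in 3.65% of all, and the degenerate TGANNNNGC, a short form of the antioxidant response element, in 17 (50%) and in 41.3% of all. These are matches of letters and not measured binding sites.

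The windows of the member that fell most, Atg2a, and of the member that rose most among those with a window and an average of at least 1 in log2 CPM (CPM are counts scaled to a common library size), Atg14, are printed whole, 5′ to 3′ on the strand of the gene, with CACGTG in capitals. Atg2a lies on the plus strand at chr19:6241418-6241717 and Atg14 on the minus strand at chr14:47568385-47568684.
Atg2a: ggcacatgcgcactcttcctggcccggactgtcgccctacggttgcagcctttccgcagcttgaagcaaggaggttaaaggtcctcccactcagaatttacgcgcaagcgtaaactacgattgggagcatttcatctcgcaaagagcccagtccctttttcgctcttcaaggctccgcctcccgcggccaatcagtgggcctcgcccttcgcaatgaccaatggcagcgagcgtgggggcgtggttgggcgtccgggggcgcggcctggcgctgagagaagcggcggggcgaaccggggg
Atg14: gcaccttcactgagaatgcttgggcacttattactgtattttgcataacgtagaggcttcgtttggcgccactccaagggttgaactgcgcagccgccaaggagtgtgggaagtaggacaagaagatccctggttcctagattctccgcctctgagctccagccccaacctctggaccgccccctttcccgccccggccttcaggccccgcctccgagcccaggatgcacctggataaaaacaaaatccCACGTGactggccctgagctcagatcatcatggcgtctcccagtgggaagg
The window of Atg2a holds none of the 4 motifs. In Atg14 the CACGTG begins at the base directly before the RefSeq start. For Atg3 and Atg7, which both fell and encode enzymes of the conjugation system, 60 bases around CACGTG are shown, from the plus strand at chr16:45158708-45158767 and chr6:114670937-114670996.
Atg3: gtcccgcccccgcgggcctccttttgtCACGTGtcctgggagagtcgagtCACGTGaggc
Atg7: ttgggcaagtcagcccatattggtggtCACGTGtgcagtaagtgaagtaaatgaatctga
The Atg3 stretch holds the core at 2 places, 94 and 71 bases before the start, and the Atg7 stretch at 1 place, 132 bases before it. For Atg3, Atg7 and Atg14 the RefSeq start lies inside the deposited gene span and not at its edge. The Atg3 window spans the first base of that gene, 45158785. The Atg14 window lies wholly inside its gene, which on the minus strand begins at 47570649. The Atg7 window, 114670846 to 114671145, lies deep inside its gene, which begins at 114643097. The Atg7 stretch is therefore not the region before the deposited gene start. Members with a CACGTG core thus included genes that fell (Atg3, Atg7), 1 that rose (Atg14) and 1 that did not pass (Atg5).

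Library totals ran from 10328575 to 20625309 counts in ICAM1high and from 16768777 to 22751975 counts in ICAM1low. The 38 genes took 0.326 to 0.356% of counts in ICAM1high and 0.384 to 0.466% in ICAM1low. Abundant genes weigh most in this sum and it does not describe each member. Sqstm1 alone held 18583 of the 73367 counts in ICAM1high replicate 1 and 23763 of the 106118 in ICAM1low replicate 4. Summed levels of 20 neutrophil markers were 12570 to 17610 CPM in ICAM1high and 56180 to 103200 CPM in ICAM1low, and 20 macrophage and monocyte markers summed to 11300 to 18310 CPM in ICAM1high and 1279 to 1946 CPM in ICAM1low. All 20 neutrophil markers fell, and 18 of the 20 macrophage markers rose. Ly6g, the defining neutrophil antigen, was present in every library, at 1.70 to 5.41 CPM in ICAM1high and 11.4 to 77.6 CPM in ICAM1low. Epithelial markers, of which 8 of 12 fell, summed to 136 to 191 CPM in ICAM1high and 319 to 532 CPM in ICAM1low, with Krt5 at 0 counts in ICAM1high. Stromal and endothelial markers, of which 3 of 12 rose, summed to 87.1 to 160.5 CPM in ICAM1high and 62.4 to 91.7 CPM in ICAM1low. Lymphocyte markers summed to 28.5 to 63.0 CPM in ICAM1high and 14.7 to 24.5 CPM in ICAM1low, with 2 of 17 higher, 1 lower, and Klrb1c and Gzmb at 0 counts in ICAM1low. Dendritic cell markers summed to 20.7 to 38.8 CPM in ICAM1high and 26.0 to 31.6 CPM in ICAM1low, with 1 of 10 higher, 1 lower, and Xcr1 at 0 counts in ICAM1low. The part of these cell type markers in the values below was not tested. ICAM1high replicate 1 and ICAM1low replicate 4 stood apart from their groups in the members, as described at the end.

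The transcriptomes of the ICAM1high and ICAM1low fractions, both labelled as neutrophils, were compared. Of 37 autophagy genes tested, 18 were lower in ICAM1high under TMM scaling. Under library totals 7 were lower and 13 higher, against 5.97% and 48.5% of all genes. Among those that fell, the changes of the lipid transfer gene Atg2a at 3.42-fold lower, the initiating kinase Ulk1 at 2.59-fold lower and the mitophagy receptor Optn at 2.52-fold lower were the most negative. Under both scalings Atg10, Pik3c3 and Atg14 rose, by 3.13-fold, 1.85-fold and 1.78-fold under TMM scaling, and each averaged 13.9 CPM or less in ICAM1high. By edgeR's quasi-likelihood test with Benjamini-Hochberg adjustment over all 14051 genes, 18 members fell, 3 rose, 16 did not pass and 1, Atg9b, had too few counts to be tested. The same test called 19.6% of all genes lower, 22.6% higher and 42.1% in either direction. In TMM-scaled CPM all 4 ICAM1high values lay below all 4 ICAM1low values in 17 members, against 18% of all genes. In 3 members they lay above, against 23.4%, and for either direction the share of all genes was 41.5%. Separation was counted on this scale only. The median log2 fold change was -0.52 over the 37 members tested and 0.08 over all genes tested. In bulk samples such as these, fewer cells of a type and less RNA per cell cannot be told apart.

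Fold changes below use TMM scaling, which sets the bulk of genes level; scaling by library totals alone raised the median of all genes by 0.68 on the log2 scale. With library totals, the 7 members lower and 13 higher stood against 5.97% of all genes lower and 48.5% higher. Ulk1, Atg2a, Atg3, Atg7, Atg16l2 and Optn were among the 7 that fell under both scalings, and the 3 that rose under TMM rose under both. Another 11 that fell under TMM did not pass under library totals, and 10 that did not pass under TMM rose. Set against the median of all genes, the members' median was lower by 0.60 under either scaling, and 27 of 37 members lay below that median under both. Rescaling libraries shifts all genes nearly together, so this agreement between the scalings follows by construction. Ulk1, Atg2a, Atg3, Atg7, Atg16l2 and Optn fell in each of the 21 alternative analyses run; no member rose in all of them. In replicates 1 and 2 alone, 10 members fell and 1 rose (9.89% and 11.9% of all genes), and in replicates 3 and 4 alone, 14 fell and 1 rose (11% and 11.4%).

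**Figure D1:**
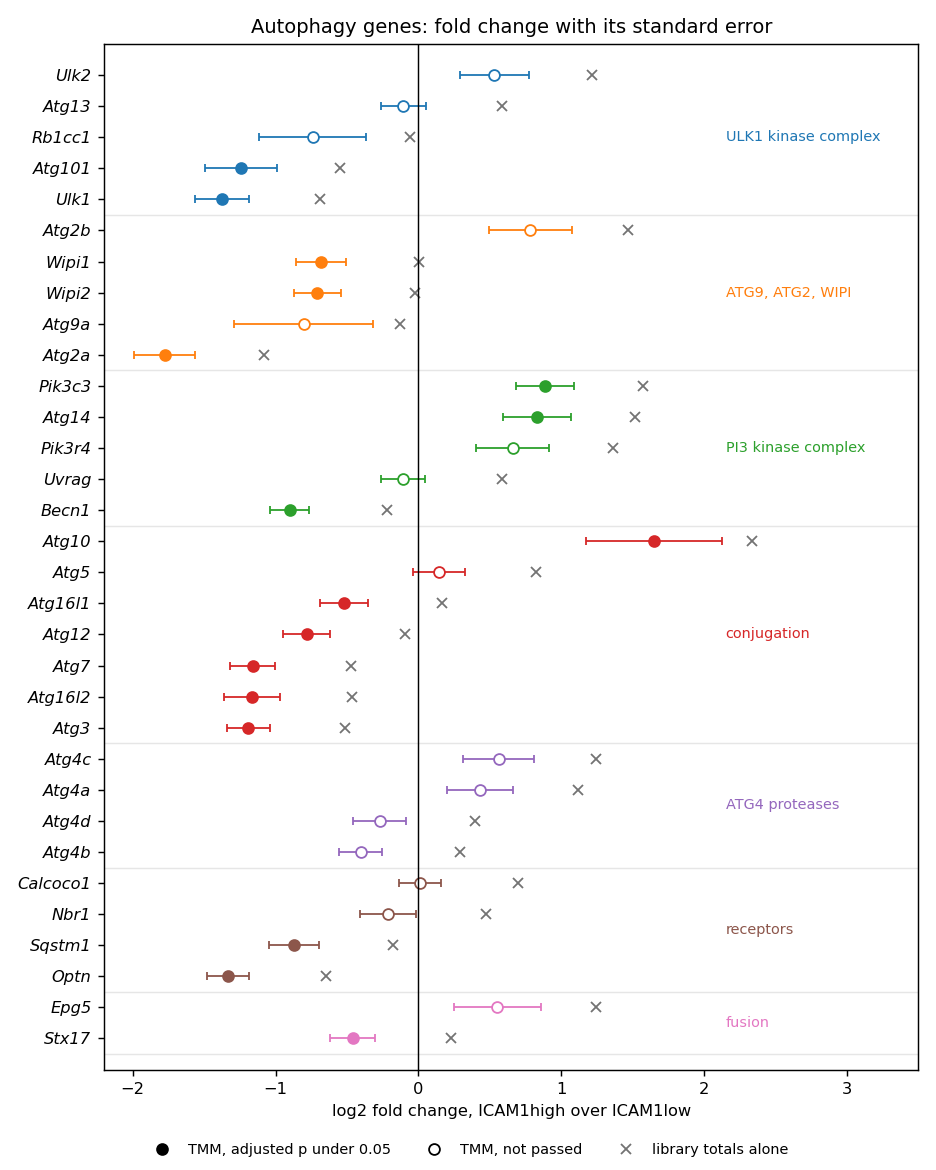
Log2 fold change of 32 of the 37 tested autophagy genes, ICAM1high over ICAM1low, grouped by role, as circles with bars of 1 standard error on the TMM scale (filled where the adjusted p was under 0.05) and as crosses under library totals alone. Circles run from -1.78 for Atg2a to 1.65 for Atg10, and under library totals every gene lies further right, with 8 of the genes drawn on the other side of 0.

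Of the 5 genes of the complex that starts autophagy 2 fell under TMM scaling, which called 19.6% of all genes lower and 22.6% higher. Under library totals, which called 48.5% of all genes higher and 5.97% lower, Ulk1 fell while Ulk2 and Atg13 rose. Ulk1 (ENSMUSG00000029512, mm10 chromosome 5, 110784488 to 110810097), the kinase that starts autophagosome formation, had 49.9, 62.6, 70.0 and 83.8 CPM in ICAM1high libraries, against 203, 152, 180 and 155 CPM in ICAM1low libraries. The groups did not overlap, and Ulk1 changed by -1.37 on the log2 scale (SE 0.19, adjusted p = 0.000317). Atg101 (ENSMUSG00000037204, chromosome 15, 101284272 to 101290945), a small subunit that stabilises ATG13, had 58.4, 40.1, 32.7 and 33.4 CPM in ICAM1high libraries, against 68.5, 87.9, 99.2 and 134 CPM in ICAM1low libraries. It changed by -1.24 (SE 0.25, adjusted p = 0.00285), with ICAM1high replicate 1 highest and ICAM1low replicate 1 lowest in their groups; under library totals it was at -0.55 with an adjusted p of 0.0519. The other 3 did not pass. Ulk2, the paralogue of Ulk1, was at 0.53 (adjusted p = 0.0992), the adaptor Atg13 at -0.11, and the large scaffold Rb1cc1, also called FIP200, at -0.74 with a wide spread of 45.4 to 120 CPM in ICAM1high and 76.1 to 246 CPM in ICAM1low; Rb1cc1 passed without ICAM1low replicate 4, at -0.97. Under library totals Atg13 turned to 0.58 and passed, below the median of all genes there (0.76).

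Among the genes that feed lipid into the growing membrane, 3 of 5 tested fell under TMM scaling, against 19.6% of all genes. Of these only Atg2a also fell under library totals, which called 5.97% of all genes lower and 48.5% higher. Atg2a (ENSMUSG00000024773, chromosome 19, 6241668 to 6262335), which encodes a rod-like lipid transfer protein, had 76.8, 113, 134 and 153 CPM in ICAM1high libraries, against 467, 362, 386 and 417 CPM in ICAM1low libraries. Its change of -1.78 (SE 0.21, adjusted p = 0.00015) was the most negative of the members, and the highest ICAM1high library held less than the lowest ICAM1low library. Its paralogue Atg2b pointed the other way without passing, at 0.78 (adjusted p = 0.052), with 11.4 CPM in ICAM1high replicate 1 and 24.2 to 30.4 CPM in the other 3, against 10.05 to 16.4 CPM in ICAM1low; it passed in 7 of the 21 alternatives, among them without ICAM1high replicate 1, at 0.98, and under library totals, at 1.47 (adjusted p = 0.00354). The phosphoinositide-binding proteins Wipi1 and Wipi2, the second of which recruits the conjugation complex, fell by 0.68 and 0.71 on the log2 scale, but were at 0.01 and -0.02 under library totals. The scramblase Atg9a was at -0.80 (adjusted p = 0.208), and its values overlapped widely, at 18.3 to 92.0 CPM in ICAM1high and 40.5 to 176 CPM in ICAM1low. Atg9b had 56 counts over all 8 libraries, was listed at 0 in ICAM1low replicate 4 and was not tested. Atg2b, Atg9a and Atg9b overlap genes on the other strand (Gskip, Ankzf1 and Nos3) by 383, 46 and 294 bases. Over their whole length these neighbours held 102%, 30.8% and 123% as many counts as the member. Whether counting used strand is not stated.

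In the class III phosphoinositide kinase complex, which makes the lipid signal on the growing membrane, 2 of 5 genes rose and 1 fell under TMM scaling. That scaling called 22.6% of all genes higher and 19.6% lower. Under library totals 4 rose (Pik3c3, Atg14, Pik3r4 and Uvrag) and none fell, against 48.5% and 5.97% of all genes. Pik3c3 (ENSMUSG00000033628, chromosome 18, 30272747 to 30348126), the catalytic subunit VPS34, had 12.1, 15.0, 15.7 and 12.7 CPM in ICAM1high libraries, against 5.80, 8.68, 8.05 and 7.43 CPM in ICAM1low libraries. It rose by 0.89 (SE 0.20, adjusted p = 0.00541). Atg14 (ENSMUSG00000037526, chromosome 14, 47540893 to 47570649), the subunit that directs the kinase to autophagy, had 5.80, 8.22, 8.83 and 9.91 CPM in ICAM1high libraries, against 3.74, 5.38, 4.83 and 4.43 CPM in ICAM1low libraries. It rose by 0.83 (SE 0.24, adjusted p = 0.0174), a call lost without ICAM1high replicate 2, 3 or 4, where it was at 0.71 to 0.80. In both genes the groups did not overlap. Becn1, the scaffold Beclin 1, fell instead, with 80.7 ± 5.04 CPM in ICAM1high and 151 ± 14.2 CPM in ICAM1low (SD, n = 4) a change of -0.90 (SE 0.14, adjusted p = 0.000553); under library totals it was at -0.22 and did not pass. Pik3r4, the regulatory subunit VPS15, was at 0.66 (adjusted p = 0.059), passing at 0.79 without ICAM1high replicate 1, at 0.78 without ICAM1low replicate 1 and at 1.36 under library totals (adjusted p = 0.00195). Uvrag, which takes the place of ATG14 in the endosomal form of the complex, was at -0.11. It had 51.5 to 76.4 CPM in ICAM1high, against 73.9, 73.9, 74.0 and 71.95 CPM in the ICAM1low libraries. Its rise of 0.58 under library totals lay below the median of all genes there (0.76).

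Of 7 conjugation genes 5 fell and 1 rose under TMM scaling, against 19.6% and 22.6% of all genes. With library totals 3 fell (Atg3, Atg7 and Atg16l2) and 2 rose (Atg5 and Atg10), against 5.97% and 48.5% of all genes. Atg7, the E1-like enzyme of the system, had 79.2, 61.6, 65.1 and 69.1 CPM in ICAM1high libraries, against 165, 128, 145 and 177 CPM in ICAM1low libraries. Atg3, an E2-like enzyme, had 113, 89.6, 81.5 and 87.9 CPM in ICAM1high libraries, against 188, 220, 229 and 212 CPM in ICAM1low libraries. Both were lower in all 4 ICAM1high libraries than in any ICAM1low library, and Atg7 changed by -1.16 (SE 0.16, adjusted p = 0.000306) and Atg3 by -1.19 (SE 0.15, adjusted p = 0.000221). Atg10, the E2-like enzyme for ATG12, went the other way at 1.65 (SE 0.48, adjusted p = 0.0183), but rests on few counts, 75, 44, 37 and 14 in ICAM1high libraries against 5, 8, 13 and 14 in ICAM1low libraries; it did not pass without ICAM1high replicate 1 (1.31) or 2 (1.66). It lies below the level set for full description and is named after its values were seen. Atg12 fell by 0.78, with 39.6 ± 2.23 CPM in ICAM1high and 68.1 ± 13.1 CPM in ICAM1low, and was at -0.09 under library totals, while its conjugation partner Atg5 was at 0.14 and rose by 0.82 under library totals. Of the paralogues whose products bind the ATG12-ATG5 conjugate, Atg16l1 fell by 0.52 (adjusted p = 0.0287) and turned to 0.16 under library totals. Its paralogue Atg16l2 fell by 1.16 (SE 0.20, adjusted p = 0.00105). The call of Atg16l1 was lost without ICAM1high replicate 2 (-0.50), ICAM1high replicate 3 (-0.57) or ICAM1low replicate 1 (-0.37). Atg16l2 had 39.5, 32.2, 39.2 and 45.1 CPM in ICAM1high libraries, against 91.1, 69.0, 73.2 and 116 CPM in ICAM1low libraries, with no overlap. It overlaps Fchsd2 on the other strand, which held 36.2% as many counts and rose by 0.79.

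None of the 4 ATG4 proteases, the cysteine proteases of the system, passed under TMM scaling with all libraries, where 42.1% of all genes passed. Atg4a and Atg4c were at 0.43 and 0.56 and Atg4b and Atg4d at -0.40 and -0.27, all within 1.5-fold. Atg4b came nearest with an adjusted p of 0.0528; its 28.9 to 31.6 CPM in ICAM1high lay below the 34.6 to 47.7 CPM in ICAM1low. It passed in 5 of the 21 alternatives, at -0.47 to -0.41 (with DESeq2, RLE or upper-quartile scaling, the stricter filter, or without ICAM1low replicate 3), and Atg4d passed at -0.45 without ICAM1high replicate 1 and ICAM1low replicate 4. Under library totals Atg4a and Atg4c rose by 1.12 and 1.24, and Atg4b and Atg4d turned to 0.29 and 0.40 without passing. Atg4b and Atg4d overlap Thap4 and Kri1 on the other strand, with 29.6% and 40.8% as many counts.

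Of 4 cargo receptors 2 fell under TMM scaling, against 19.6% of all genes. Under library totals Optn fell while Calcoco1 rose, against 5.97% of all genes lower and 48.5% higher. Sqstm1 (ENSMUSG00000015837, chromosome 11, 50199366 to 50210827), which encodes p62, had 765, 583, 585 and 635 CPM in ICAM1high libraries, against 959, 1096, 1164 and 1483 CPM in ICAM1low libraries. It changed by -0.87 (SE 0.17, adjusted p = 0.00278) with no overlap, but was at -0.18 under library totals and did not pass there. Optn (ENSMUSG00000026672, chromosome 2, 5020642 to 5064051), optineurin, a receptor for ubiquitinated mitochondria and bacteria, had 33.2, 36.4, 40.5 and 43.4 CPM in ICAM1high libraries, against 107, 88.1, 96.4 and 94.9 CPM in ICAM1low libraries. Its change of -1.33 (SE 0.15, adjusted p = 8.25e-05) had the smallest p of all members, and it held at -0.64 under library totals. Nbr1, a relative of p62, was at -0.21 (SE 0.19) and Calcoco1, a receptor for endoplasmic reticulum, at 0.01 (SE 0.15). Calcoco1 had 33.8 ± 3.61 CPM in ICAM1high and 33.6 ± 3.18 CPM in ICAM1low (SD, n = 4). Its rise of 0.70 under library totals lay below the median of all genes there (0.76). Of the 2 fusion factors, the SNARE Stx17 fell by 0.46 (adjusted p = 0.036), with 29.2 to 38.1 CPM in ICAM1high and 38.2 to 50.1 CPM in ICAM1low, and turned to 0.23 under library totals. That call was lost when any of 5 libraries was left out: ICAM1high replicate 2 or 3, or ICAM1low replicate 1, 3 or 4, at -0.49 to -0.40. The tether Epg5 was at 0.55 (adjusted p = 0.17) and passed at 0.74 without ICAM1high replicate 1 and at 1.24 under library totals (adjusted p = 0.00953).

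**Figure D2:**
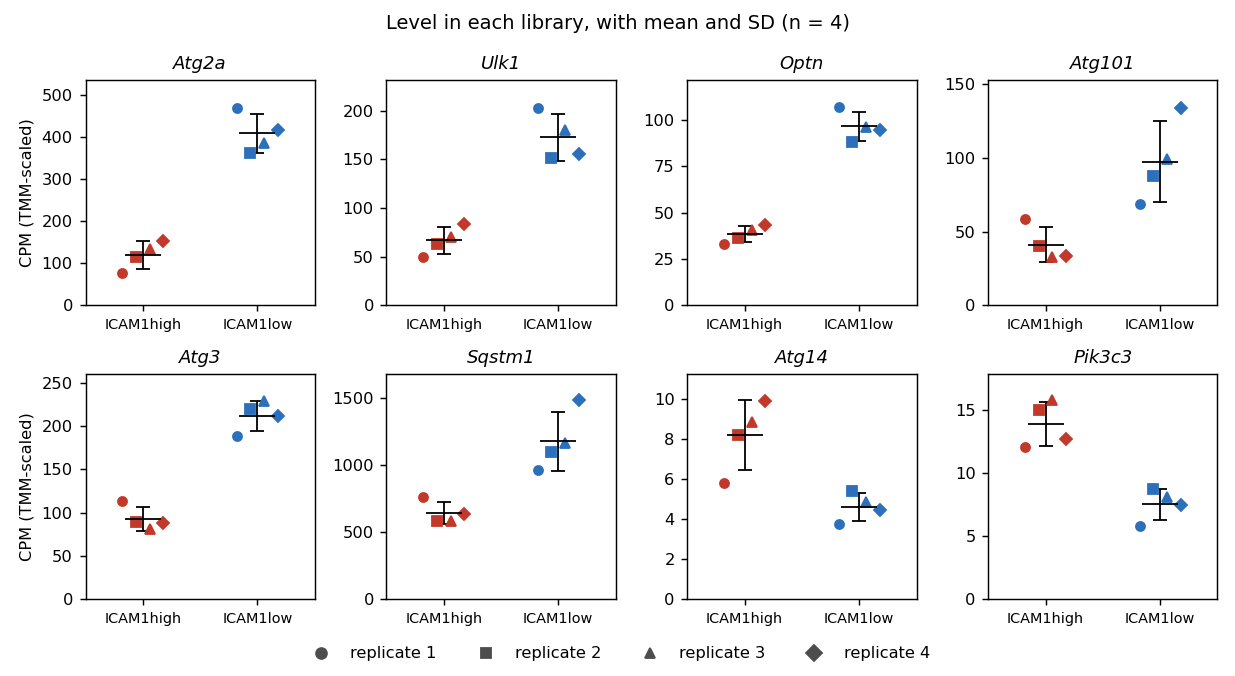
TMM-scaled CPM (vertical axes, from 0) of 8 autophagy genes in each ICAM1high and ICAM1low library, with 1 marker per replicate and the mean ± SD of 4 in black. Under TMM scaling Atg2a, Ulk1, Optn, Atg101, Atg3 and Sqstm1 are lower in every ICAM1high library, of which Atg101 and Sqstm1 did not pass under library totals, and Atg14 and Pik3c3 are higher in every ICAM1high library.

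Levels can be compared between genes only per length, here as CPM per kilobase of the deposited gene length. On this scale Sqstm1 ranked 2 of 38 in both fractions, with 191 ± 25.4 in ICAM1high and 350 ± 66.1 in ICAM1low (SD, n = 4), far above the enzymes and kinases. Atg3 had 29.5 ± 4.37 in ICAM1high and 67.3 ± 5.54 in ICAM1low, and Atg101 had 25.8 ± 7.49 in ICAM1high and 61.0 ± 17.2 in ICAM1low, so that neither fraction separated these genes beyond their spread. At the bottom stood Atg9b at 0.0818 ± 0.0522 in ICAM1high and 0.119 ± 0.0826 in ICAM1low, below Atg10 at 1.14 ± 0.487 in ICAM1high and 0.361 ± 0.135 in ICAM1low. The order of the 38 genes was similar in both fractions, with Spearman's rho of 0.967 across genes, which share libraries, depth and gene models and are not independent replicates. Atg5 ranked 6 in ICAM1high, at 17.7 ± 1.42, and 15 in ICAM1low, at 16.0 ± 3.54.

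**Figure D3:**
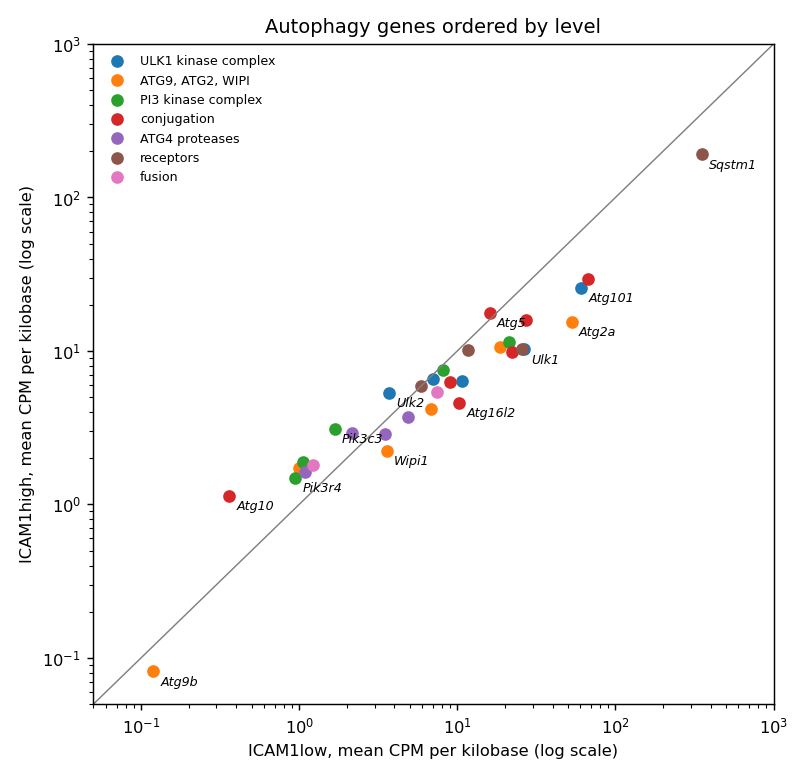
Mean CPM per kilobase (log axes) of 33 of the 38 autophagy genes in ICAM1high (vertical) against ICAM1low (horizontal), 1 point per gene coloured by role, with the line of equal levels. Sqstm1 stands at the top right, and Atg10 and Pik3c3 lie above the line while most genes of higher level, such as Atg2a and Ulk1, lie below it.

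Shares within a gene family compare members inside 1 library and do not depend on how libraries are scaled. They do depend on the deposited gene lengths. Atg2b, Atg16l2, Atg4b and Atg4d also overlap genes on the other strand, as given above, and the part of those neighbours in the shares was not tested. Ulk1 made up 64.3, 60.4, 66.0 and 71.2% of the Ulk1 and Ulk2 total in ICAM1high libraries, against 87.8, 87.5, 85.1 and 91.4% in ICAM1low libraries. Atg2a made up 92.2, 89.1, 88.5 and 91.0% of the Atg2a and Atg2b total in ICAM1high libraries, against 98.2, 97.5, 98.2 and 98.6% in ICAM1low libraries. In both pairs the share of the more abundant form was lower in every ICAM1high library. Atg16l1 held 55.7 to 59.8% of the Atg16l1 and Atg16l2 total in ICAM1high and 38.2 to 51.8% in ICAM1low, without overlap. Atg4b held 30.8 to 35.8% of the 4 ATG4 proteases in ICAM1high and 37.5 to 49.1% in ICAM1low. The groups overlapped for Wipi1, which held 34.1 to 36.5% of both Wipi genes in ICAM1high and 29.6 to 37.6% in ICAM1low. These shares were chosen with fold changes of the same genes known and are given without a test.

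**Figure D4:**
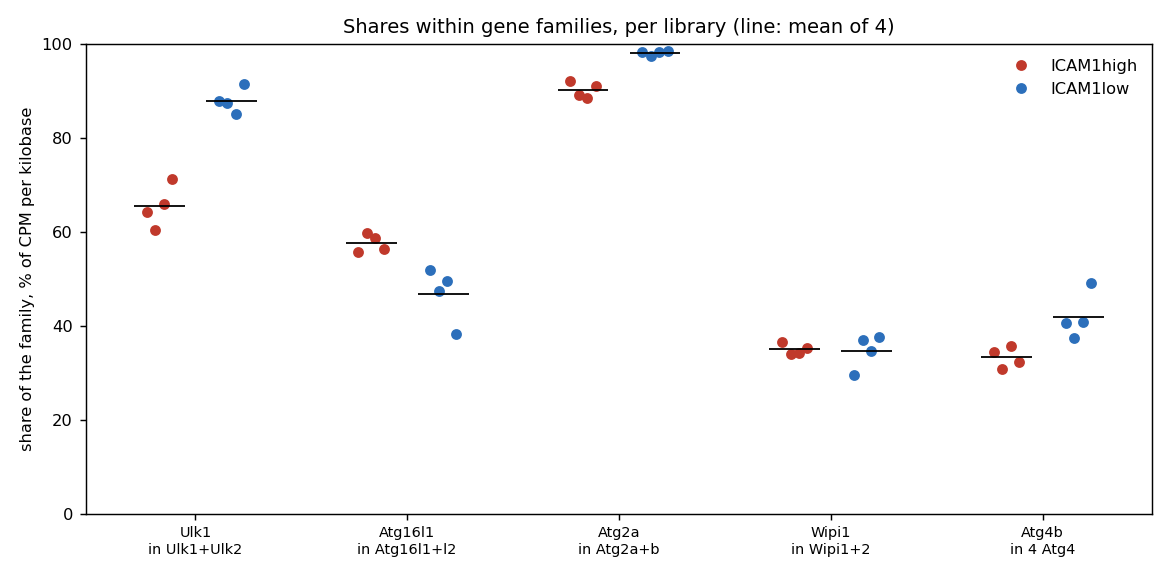
Share of the named gene in its family, in % of CPM per kilobase (vertical axis), for each ICAM1high (left of each pair) and ICAM1low (right) library, with lines at the mean of 4. The shares of Ulk1, Atg2a and Atg4b are lower and that of Atg16l1 higher in every ICAM1high library, whereas Wipi1 overlaps.

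Among 94 further genes of the pathway outside the 38, 90 were tested, of which 33 fell and 14 rose, with a median of -0.22, against 19.6% of all genes lower and 22.6% higher. Under library totals 6 fell and 39 rose, against 5.97% of all genes lower and 48.5% higher, so those shares were near the background. Genes of initiation and lipid supply had 10 of 18 lower and 3 higher, selective receptors and mitophagy genes had 8 of 19 lower and 1 higher, nutrient control genes had 11 of 33 lower and 4 higher, and fusion and lysosome genes had 4 of 20 lower and 6 higher, the last near the shares of all genes. The 4 that fell with the smallest p were Sesn2, a stress-induced inhibitor of mTORC1, at -2.28, Rab7, the late endosome GTPase, at -1.51, Retreg1, a receptor for endoplasmic reticulum, at -1.10, and Vmp1, a lipid scramblase needed for autophagosome formation, at -1.41. Sesn2 had 40.3 ± 4.91 CPM in ICAM1high and 195 ± 23.3 CPM in ICAM1low, and Rab7 had 425 ± 89.6 CPM in ICAM1high and 1213 ± 219 CPM in ICAM1low (SD, n = 4). All 4 also fell under library totals, by 0.42 to 1.59 on the log2 scale. The 4 that rose with the smallest p were Vps41, a subunit of the HOPS tethering complex, at 1.74, Usp30, a deubiquitinase that opposes mitophagy, at 1.98, Rptor, the mTORC1 subunit raptor, at 2.17, and Rubcn, at 1.57. Rubcn encodes Rubicon, which restrains the UVRAG complex, and had 20.1 ± 5.51 CPM in ICAM1high and 6.73 ± 1.34 CPM in ICAM1low. Of the factors that bind CACGTG, Tfeb and Tfe3, picked after their values were seen, fell by 0.69 and 0.80 and were at -0.01 and -0.10 under library totals. Their relative Mitf did not pass, at -0.02 (adjusted p = 0.963), with 44.9 ± 9.69 CPM in ICAM1high and 45.4 ± 12.1 CPM in ICAM1low (SD, n = 4).

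Within each fraction 1 library departed from the other 3 in many members, and in ICAM1high replicate 1 the departures went with gene length. In ICAM1high replicate 1, 10 of the 13 tested members shorter than 4000 bases had the highest value of the group, while of the 24 longer ones 15 had the lowest and 4 the highest. In ICAM1low replicate 4, 9 of the 13 shorter members were highest, but the 24 longer ones were nearly balanced, with 9 lowest and 7 highest. Atg101, at 1597 bases, stood above the median of the other 3 libraries by 0.81 in ICAM1high replicate 1 and 0.61 in ICAM1low replicate 4 on the log2 scale, and Rb1cc1, at 14690 bases, stood at -1.40 in ICAM1high replicate 1 and -1.17 in ICAM1low replicate 4. Atg9a departed most, at -1.91 in ICAM1high replicate 1 and -1.48 in ICAM1low replicate 4, although its length of 5762 bases is moderate. Without both libraries all 21 called members were called in the same direction, and 3 more rose (Atg2b, Pik3r4 and Epg5) and 3 more fell (Atg9a, Rb1cc1 and Atg4d), giving 6 higher and 21 lower against 25.5% and 24.5% of all genes. Atg9a was then at -0.81 and Rb1cc1 at -0.77. The length bound of 4000 bases was chosen after the values were seen, and the part of RNA quality in this pattern was not tested.

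**Figure D5:**
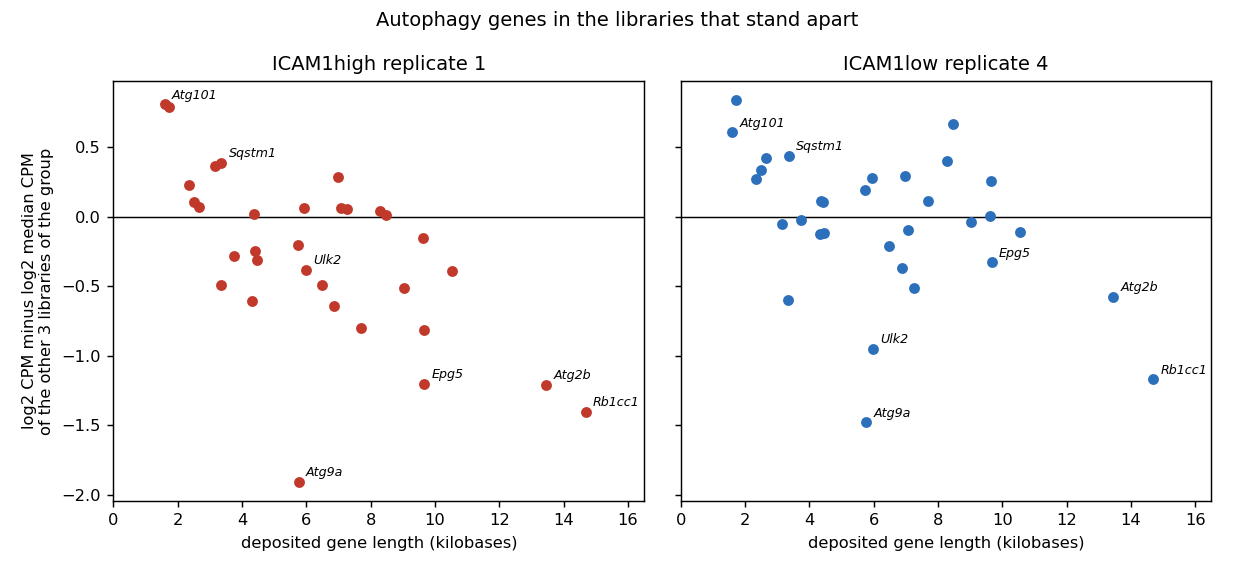
Departure of ICAM1high replicate 1 (left) and ICAM1low replicate 4 (right) from the median of the other 3 libraries of their group, in log2 CPM (vertical axis), against deposited gene length in kilobases, 1 point for each of 32 autophagy genes. Atg101 lies above 0 in both panels, Rb1cc1 and Atg2b lie below it and Atg9a is lowest in both, while in ICAM1low replicate 4 other long genes lie on both sides of 0.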

How the data were processed

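The authors deposited 1 table of raw read counts per gene, with gene names, positions and gene lengths in bases. Gene length is an other quantity, used to set levels per kilobase and to sort members by length. The submitters' processing notes name HISAT2 and mm10; the versions, the counter and its use of strand are not given in the sources used. Positions of 36 of the 38 members equal those of GENCODE M21; Atg12 and Epg5 differ.

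In edgeR 4.0.16 (R 4.3.3), filterByExpr kept 14051 genes, TMM set the library sizes, and an unpaired quasi-likelihood test was run, with Benjamini-Hochberg adjustment over all genes and a threshold of 0.05. Standard errors are the size of the log2 fold change over the square root of F. CPM used TMM-scaled library sizes; levels per kilobase are these CPM over gene length and take the place of the TPM planned, so that all levels share 1 scale. The fit was tested on simulated data.

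Members, lists and alternatives were chosen with earlier results of these data known. The planned rule gave full values for the 6 members with the largest changes in each direction among those that passed and averaged at least 1 in log2 CPM (only 2 rose) and for Sqstm1; of the falling 6, 4 are reported, and Atg3, Atg16l2 and Atg7, next in size, were added after their values were seen; of other pathway genes, the 4 with the smallest p in each direction. Of the 38 genes, 5 enter the counts and medians but are not reported here. Replicates of a group differed by 11.4 to 198 in chi-square per degree of freedom, so none was a duplicate. Same-numbered libraries were not treated as pairs, because the labels state no pairing. Their correlations of deviations were -0.57, 0.21, 0.18 and -0.30, which cannot decide it. Library numbers run 898, 899 and 001, 002, replicates 1 and 2 and replicates 3 and 4; the labels do not call these batches.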

Additional observations from a re-analysis of the deposited data

Results flagged for a closer look

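Among 78 sets of 4 values, 2 had 1 library farther from the rest than a 95% limit allows, against about 1 in 20 by chance. In ICAM1high, replicate 1 held Atg4c at 4.11 CPM, below 5.72 to 6.05 CPM in the other 3. In ICAM1low, replicate 4 held Uvrag at 71.95 CPM, below 73.9 to 74.0 CPM, a gap that is wide only against the near-equal values of the other 3 libraries.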

How the results depend on the processing

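Main counts were 3 members higher and 18 lower, 14 and 33 of the other pathway genes, and 3172 and 2748 of all genes. Library totals alone gave 13 and 7, 39 and 6, and 6818 and 839. Replicates 1 and 2 alone gave 1 and 10, 9 and 12, and 1708 and 1416, and replicates 3 and 4 alone 1 and 14, 10 and 19, and 1658 and 1604; these fits hold fewer samples. Without both ICAM1high replicate 1 and ICAM1low replicate 4, 6 members and 24 other pathway genes were higher. Leaving out 1 library at a time gave 1 to 5 members higher and 15 to 18 lower, 10 to 17 and 26 to 35 of the other pathway genes, and 2345 to 3403 and 2157 to 2927 of all genes. The fewest members higher came without ICAM1high replicate 2 and the most without ICAM1high replicate 1. With a replicate block 2 members were higher and 14 lower, 11 and 22 of the other pathway genes, and 2263 and 1975 of all genes. Whether same-numbered libraries are pairs is not known, and their correlations cannot decide it. DESeq2 1.42.0, limma-voom (limma 3.58.1), RLE and upper-quartile scaling, robust dispersion, the library-number run as a covariate and both other filters stayed within 1.5 times of every main count. Atg10 did not pass the filter of 50 counts in 4 libraries.

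Signs turned under library totals for Atg13 (0.58), Uvrag (0.58), Nbr1 (0.48), Atg4d (0.40), Atg4b (0.29), Stx17 (0.23), Atg16l1 (0.16) and Wipi1 (0.0057). They turned in replicates 3 and 4 alone for Atg9a (0.16), Nbr1 (0.0195) and Atg5 (-0.0121), and in replicates 1 and 2 alone for Calcoco1 (-0.062). Calcoco1 was also at -0.0577 with DESeq2, -0.0569 with RLE and -0.0159 with upper-quartile scaling, and from -0.0748 to 0.0555 with 1 library left out. By construction library totals shift all genes together; the cause of the other changes was not tested. Depth limits Atg10 and Atg9b, with 210 and 56 counts in all.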
